A study of Arabidopsis thaliana with 12 samples.

Results

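A 1 h pulse of white light given in the subjective day to dark-kept Arabidopsis seedlings was compared with darkness at the same time, across all probe sets of the array other than its controls. The comparison is between 3 day pulse and 3 day control arrays, 6 of the 12 arrays of the series, chosen by their titles. All 12 arrays entered the normalization, the filter on mean signal and the estimate of the spread. All plants were wild type (Columbia), 15 days old and raised in cycles of 12 h light and 12 h darkness before they were moved to constant darkness. Day pulse plants then received the 1 h pulse, day control plants stayed dark, and the other 6 arrays hold the same pair of treatments at night. Total RNA of the aerial rosette was hybridized to Affymetrix ATH1 arrays, which carry probe sets for most Arabidopsis genes. The labels place the subjective-day samples at CT 18 and the night samples at CT 6, hours that conflict with the titles if counted from subjective dawn, so the groups are named by title. The labels do not say whether arrays came from separate plants, so p-values measure the spread between arrays only.

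Leaves in prolonged darkness run out of carbohydrate and draw on lipids, proteins and whole organelles for energy, in part through autophagy, which delivers cell contents to the vacuole. Light acts on such tissue through photoreceptors and, over longer times, through the sugars that photosynthesis supplies. Light is also known to switch on flavonoid synthesis, nitrate assimilation and the build-up of the photosynthetic apparatus, and the circadian clock gates many of these responses.

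Signals are the deposited intensities after quantile normalization over the 12 arrays, log2 changes (day pulse minus day control) are on the log2(signal + 2) scale with the standard error, and n is 3 arrays per group. Calls required an adjusted p (Benjamini-Hochberg) below 0.05 in limma. Where a group's mean lay under 21.75, the lowest mean signal kept by the filter on dim probe sets, the fold is a lower bound and is given as "at least". A number in parentheses after an alternative (an array left out, another scaling, array weights, the day arrays alone) is the gene's adjusted p there. Over all 13647 probe sets tested 42.7% were called, 21.0% higher and 21.8% lower after the day pulse, and on 48.0% the pulse and control arrays did not overlap. Over the 7256 genes represented by 1 probe set each, 19.1% rose and 22.6% fell, with a median change of -0.09. A group of genes called in about those shares looks like the array as a whole. Centring arrays on their medians moved the median of all changes to -0.25, and then 14.8% of genes rose and 32.1% fell, whereas without normalization 14.4% rose and 12.1% fell. RNA quality, read from the GAPDH control probes as the signal near the 3' end over that near the 5' end, gave 9.29 for day pulse replicate 1 and 8.75 for day control replicate 2, the 2 high-GAPDH arrays. The remaining arrays had 2.16 to 5.16. Of the leaf markers checked, 1 of 6 had a named probe set, RCA (Rubisco activase), with signals of 6061, 6881 and 6641 on the day pulse arrays, against 4568, 2626 and 4568 on the day control arrays. Of the root markers 3 of 7 had one, of which PYK10, at 679, 768 and 390.2 after the day pulse, against 839.8, 912 and 859 in the day controls, was tested and not called. EXPA7 and PRX44 stayed at or under 17.0 on all 6 arrays, and the 1 flower and pollen marker found was at or under 17.1. No seed marker had a named probe set, and the 1 guard cell marker found, FMA (FAMA), was not called (adjusted p = 0.434). In RNA from whole rosettes, fewer cells of a type and less RNA per cell cannot be told apart.

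Rises and falls were near equal in number but not in size. At 2-fold or more 1913 probe sets rose (14.0%) and 1785 fell (13.1%), at 4-fold or more 724 rose and 460 fell, and at 8-fold or more 281 rose and 142 fell. The ratio of rises to falls was thus 1.07 at 2-fold, 1.57 at 4-fold and 1.98 at 8-fold. From 2-fold to 8-fold it grew also without normalization (1.46, 1.90 and 2.31), with median centring (0.595, 0.911 and 1.22), with dim signals raised to 21.75 (1.02, 1.50 and 1.70) and without both high-GAPDH arrays (1.14, 1.65 and 1.94), although with median centring falls outnumbered rises at 2-fold and 4-fold. At 16-fold, where 99 rose and 49 fell, the ratio was 2.02, against 1.98 at 8-fold. It did not grow at 16-fold under 3 of the alternatives, with 2.16 without normalization, 1.89 without both high-GAPDH arrays and 1.195 (49 rises and 41 falls) with dim signals raised. The brightest 25% of probe sets by mean signal were called higher in 26.8% and lower in 20.6% of cases, against 15.1% and 17.4% in the dimmest 25%.

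**Figure D1:**
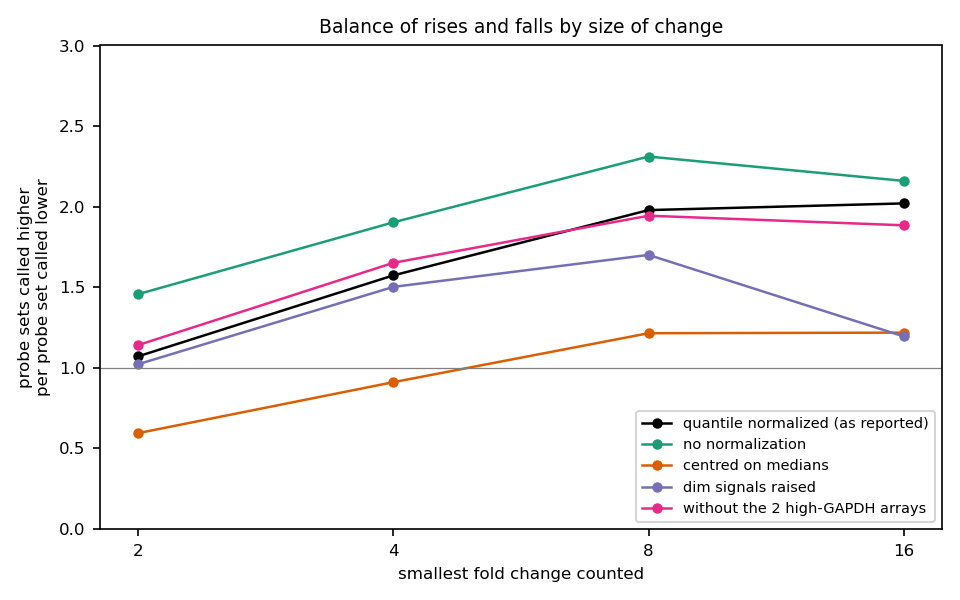
Number of probe sets called higher per probe set called lower (vertical axis) among those changed at least 2-, 4-, 8- or 16-fold after the day pulse relative to the day controls (horizontal axis), for the quantile-normalized data and 4 alternatives. The ratio as reported goes from 1.07 at 2-fold to 2.02 at 16-fold, and the median-centred ratio from 0.595 to 1.22. With dim signals raised it is 1.70 at 8-fold and 1.195 at 16-fold.

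Gene groups were drawn up as lists of symbols and single loci, or for plastid-encoded genes by chromosome and name. Of 74 such groups, 61 had at least 5 tested genes, and 29 of these had 40% or more of them called in 1 direction or at least 3 called each way. They are described here by role, and the plot of changes by gene group shows every tested member. The median change of a group is given beside the -0.09 of all genes. A longer list called at about the shares of all genes can also have at least 3 called each way.

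**Figure D2:**
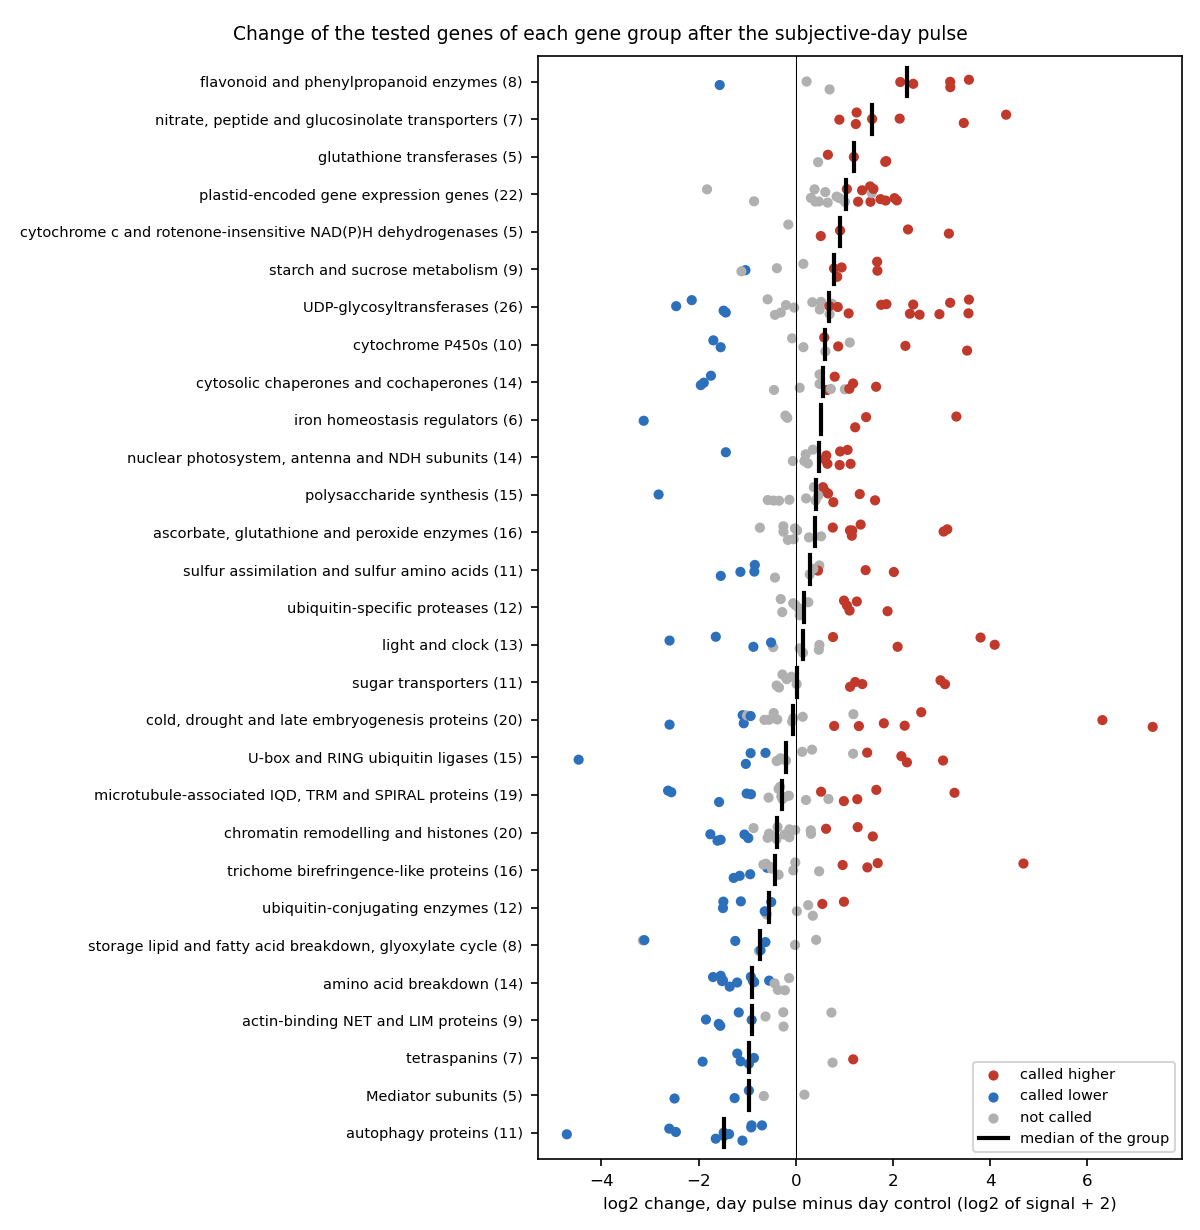
Log2 change after the day pulse relative to the day controls (horizontal axis) of each tested gene of 29 gene groups (rows, with the number of tested genes), coloured by call, with a black bar at the group's median. Medians run from 2.28 for flavonoid and phenylpropanoid enzymes to -1.48 for autophagy proteins, and several groups, such as the iron regulators, hold called genes on both sides of 0.

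Of 12 listed transporters of nitrate, peptides and glucosinolates, 7 were tested and all 7 were called higher. They belong to the NPF family, whose members carry nitrate, hormones or defence compounds across membranes. The list was drawn up with earlier results of these data known, so its share does not describe the family. The median of the 7 tested genes was 1.57, and the count of rises stayed at 7 with median centring and at 6 without normalization. AT3G21670 (NPF6.4), a nitrate transporter, had signals of 1126, 2378 and 2539 on the day pulse arrays, against 80.5, 95.3 and 104 on the day control arrays. The groups were far apart, with day pulse replicate 1, a high-GAPDH array, the lowest of the pulsed arrays, and the change was 4.33 ± 0.31 (adjusted p = 2.14e-07). GTR1, which loads glucosinolates into the phloem, averaged 327 ± 48.0 after the day pulse, against 28.4 ± 7.30 in the day controls (SD), a change of 3.45 ± 0.22 without overlap. AT1G68570 (NPF3.1) was at 286, 282 and 308 after the day pulse, against 92.0, 65.4 and 45.1 in the day controls and AT2G26690 (NPF6.2), a nitrate transporter, at 1639, 1278 and 1576 after the day pulse, against 527, 694 and 692 in the day controls. In both genes every pulsed array was above every control array, with changes of 2.14 ± 0.22 and 1.23 ± 0.16. The remaining genes, GTR2, AT1G33440 (NPF4.4) and AT1G59740 (NPF4.3), were also called higher.

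**Figure D3:**
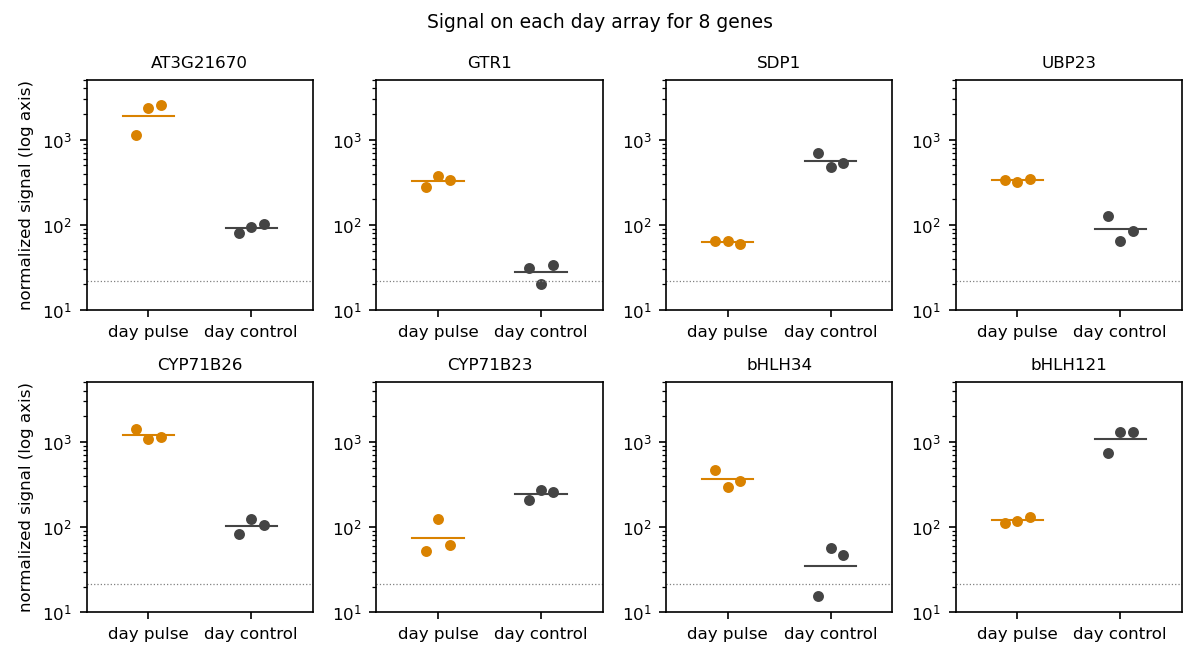
Normalized signal (log axis) on each of the 3 day pulse arrays (left of each panel) and the 3 day control arrays (right) for 8 genes, with a line at the mean of log2(signal + 2) taken back to signal and a dotted line at 21.75. The upper row holds 2 transporters, the lipase SDP1 and the ubiquitin-specific protease UBP23, and the lower row pairs a P450 and a bHLH gene that rose with relatives that fell.

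Among sugar transporters 5 of 11 tested genes rose and none fell, although with median centring 2 fell and 5 rose. Their median change was 0.02, so the group was split between strong rises and little change. TMT2, which loads sugars into the vacuole, had 279, 261 and 262 on the day pulse arrays, against 111, 88.1 and 110.3 on the day control arrays, a change of 1.37 ± 0.18 with groups far apart and closely spaced replicates. SWEET17, a fructose carrier of the vacuole membrane, rose by 2.98 ± 0.24, SWEET1 by 1.11 ± 0.19 and SWEET13, a sucrose exporter, at least 4.23-fold. SWEET11, a sucrose exporter and the brightest of the group, had 994, 895 and 1103 after the day pulse, against 724, 1238 and 1324 in the day controls and was not called. For sulfur, 3 of 11 genes rose and 4 fell. APS3, an ATP sulfurylase that starts sulfate assimilation, had 129, 81.7 and 79.8 after the day pulse, against 46.5, 12.1 and 17.8 in the day controls, a change of 2.02 ± 0.39, and MMT, which methylates methionine, rose by 1.43 ± 0.29. OASA2, an O-acetylserine(thiol)lyase family gene, fell by 1.55 ± 0.40 and LCD, which splits cysteine, had 100.3, 157 and 151 after the day pulse, against 238, 298 and 370.4 in the day controls, a fall of 1.14 ± 0.21. STR18, a sulfurtransferase, fell by 0.86 ± 0.30 with overlapping arrays, and its call was lost with the 6 day arrays alone (0.0818), without day pulse replicate 2 (0.101), without day pulse replicate 3 (0.135), without day control replicate 1 (0.0508) and without day control replicate 2 (0.134). SUFE2, of iron-sulfur cluster assembly, had an adjusted p of 0.0486, and its call was lost under 12 alternatives, among them each that leaves out day pulse replicate 2 or 3 or day control replicate 1 or 2 (0.0627, 0.162, 0.128 and 0.113). SAMDC, of polyamine synthesis, was the brightest and was not called at 0.28 ± 0.21, but was called with array weights (0.0138) and without day control replicate 1 (0.0115).

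Of 26 tested UDP-glycosyltransferases, which attach sugars to small molecules, 12 rose and 4 fell (median 0.69), and with median centring 9 rose and 4 fell. GT72B1, which glucosylates phenolic compounds, had 293, 556 and 612 on the day pulse arrays, against 63.4, 23.2 and 36.0 on the day control arrays. Its pulsed arrays all lay above its controls, with day pulse replicate 1 again the lowest of the 3, and the change was 3.55 ± 0.36. UGT84A3, which makes sinapate glucose esters, was at 672, 543 and 624 after the day pulse, against 86.7, 52.3 and 62.9 in the day controls, a change of 3.17 ± 0.29. The next gene in the TAIR10.1 gene order, UGT84A4, chosen after its values were seen, had 0.69 ± 0.34 without a call. UGT76E11 rose at least 6.71-fold, with 110.1, 174 and 203 after the day pulse, against 13.4, 21.6 and 21.9 in the day controls. The falls included UGT73B1, at 40.5, 46.0 and 63.6 after the day pulse, against 358, 143 and 219 in the day controls, a fall of 2.14 ± 0.29, and UGT85A5, which fell at least 3.57-fold. The gene next to it, UGT85A2, also chosen after its values were seen, fell by 1.44 ± 0.37. UGT74D1, which was the brightest uncalled member, had 103, 361 and 391 after the day pulse, against 173, 122 and 144 in the day controls. Day pulse replicate 1 lay below all 3 controls and the other 2 pulsed arrays lay above them. UGT74D1 was called with array weights (0.000169), without both high-GAPDH arrays (0.00701) and without day pulse replicate 1 (0.0019).

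Of 8 flavonoid and phenylpropanoid enzymes tested, 5 rose and 1 fell, with a median of 2.28, and these counts were the same without normalization and with median centring. HCT, which channels p-coumarate into lignin and chlorogenate synthesis, had 883, 848 and 825 on the day pulse arrays, against 284, 152 and 161 on the day control arrays. The pulsed replicates were closely spaced and the groups did not overlap, with a change of 2.15 ± 0.21. The flavonol glycosyltransferases UGT78D1 and UGT78D2, which with UGT84A3 are also counted among the UDP-glycosyltransferases, rose by 2.41 ± 0.23 and 3.56 ± 0.37. For UGT78D2 day pulse replicate 1 was at 225, against 812 and 751 on the other 2 pulsed arrays, and 38.6 to 48.6 in the controls. CCOAMT, a caffeoyl-CoA methyltransferase, fell by 1.57 ± 0.32, with 69.2, 58.5 and 26.3 after the day pulse, against 124, 138 and 178 in the day controls. ALDH2C4, which makes sinapate and ferulate, was the brightest and had 0.22 ± 0.15 without a call, but was called with array weights (0.0409).

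The listed cytochrome P450s, from a family of oxygenases of specialised and hormone metabolism, went both ways, with 4 of 10 tested genes higher and 2 lower. The list held 23 genes, and every P450 named here is of the CYP71B subfamily. The counts therefore do not describe P450s at large. CYP71B26 had 1421, 1067 and 1154 on the day pulse arrays, against 82.8, 126 and 105 on the day control arrays, a change of 3.52 ± 0.21 with no overlap. CYP71B35, in the same gene cluster, was at 118, 109.5 and 108 after the day pulse, against 35.6, 12.9 and 22.5 in the day controls, a change of 2.25 ± 0.29. CYP71B34, directly beside CYP71B35, had 149, 147 and 145 after the day pulse, against 144, 193 and 135 in the day controls and was not called (-0.08 ± 0.24). In the same cluster CYP71B23 fell by 1.70 ± 0.30 and CYP71B24, with 1 gene between them, fell by 1.55 ± 0.39. CYP71B23 had 53.0, 125 and 61.1 after the day pulse, against 211, 272 and 258 in the day controls, and CYP71B24 had 32.9, 26.9 and 29.7 after the day pulse, against 118, 114 and 55.1 in the day controls, without overlap in either. Which sequences their probe sets share was not analysed here. CYP71B28 rose by 0.87 ± 0.22, and the smaller rise of CYP71B6 (0.58 ± 0.20) lost its call without normalization (0.133), with median centring (0.539), with the 6 day arrays alone (0.0792), with array weights (0.0719), without both high-GAPDH arrays (0.15), without day pulse replicate 1 (0.105), without day control replicate 1 (0.0791) and without day control replicate 2 (0.0655).

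Of 5 tested glutathione transferases, which conjugate glutathione to other molecules, 4 rose (median 1.19), with 3 rises without normalization and with median centring. GSTU18 had 319, 316 and 342 on the day pulse arrays, against 110.1, 85.6 and 76.1 on the day control arrays, a change of 1.84 ± 0.21, GSTU20 rose at least 2.42-fold and GSTU27 by 1.19 ± 0.21. GSTU16 rose by 0.66 ± 0.18, a call lost without normalization (0.251) and with median centring (0.305). GSTL3, with 358, 886 and 807 after the day pulse, against 415, 416 and 572 in the day controls, was not called, but was called with array weights (0.00864), without both high-GAPDH arrays (0.0133) and without day pulse replicate 1 (0.00419). Of 16 enzymes of ascorbate, glutathione and peroxide metabolism, 7 rose and none fell, although with median centring 6 rose and 2 fell. VTC4, a phosphatase of ascorbate synthesis, had 356, 254 and 283 on the day pulse arrays, against 23.3, 29.8 and 47.9 on the day control arrays, a change of 3.12 ± 0.25, with groups far apart. MSRB6, a methionine sulfoxide reductase, was at 252, 410.1 and 358 after the day pulse, against 31.9, 38.9 and 46.8 in the day controls, a change of 3.04 ± 0.25. GR, the organellar glutathione reductase, had 565, 692 and 929.6 after the day pulse, against 294, 297 and 377 in the day controls, and its pulsed arrays, though spread, all exceeded the controls (1.15 ± 0.18). ATMDAR2, which regenerates ascorbate, rose by 1.16 ± 0.23. GME, which forms GDP-galactose for ascorbate synthesis and was the brightest of the group, had 1370.4, 2271 and 2151 after the day pulse, against 1850.0, 1765 and 1948 in the day controls and was not called, but with median centring it was called lower at -0.50 (0.0296).

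Of 5 tested genes for cytochrome c and the NAD(P)H dehydrogenases that bypass complex I in mitochondria, 4 rose, 3 with median centring and 2 without normalization. CYTC-2, 1 of the pair of cytochrome c genes, had 471, 668 and 641 on the day pulse arrays, against 75.3, 45.4 and 77.7 on the day control arrays, a change of 3.15 ± 0.24 with groups far apart. CYTC-1 rose by 0.51 ± 0.15, and its call was lost without normalization (0.36), with median centring (0.953), with the 6 day arrays alone (0.0726), without both high-GAPDH arrays (0.0669), without day pulse replicate 3 (0.0539) and without day control replicate 2 (0.0622). NDB2 rose by 2.31 ± 0.26 and NDC1 by 0.91 ± 0.25, a call lost without normalization (0.0844), while NDB1 had -0.16 ± 0.24 and was not called.

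SDP1, the lipase that starts the breakdown of stored oil, had 64.5, 65.4 and 59.3 on the day pulse arrays, against 701, 478 and 531 on the day control arrays, a fall of 3.12 ± 0.23 with tight replicates in the pulsed arrays. Of 8 tested genes of lipid and fatty acid breakdown 4 fell and none rose (median -0.74), but only 1 fell without normalization and 5 fell with median centring. PAHX, of fatty acid alpha-oxidation, was at 460.5, 606 and 595 after the day pulse, against 913, 903 and 918 in the day controls, a fall of 0.73 ± 0.17. FAAH, a fatty acid amide hydrolase, fell by 0.63 ± 0.18, calls that were lost without normalization (0.0899) for PAHX and without normalization (0.178) for FAAH. AAE16, an acyl-activating enzyme, fell by 1.25 ± 0.44, with 9.75, 45.2 and 38.2 after the day pulse, against 58.7, 63.2 and 73.3 in the day controls, and lost the call under 8 alternatives, among them those without day pulse replicate 1 or without any 1 of the day controls (0.101, 0.0523, 0.0735 and 0.101). AIM1, of peroxisomal beta-oxidation, had 324, 578 and 749 after the day pulse, against 643, 228 and 401 in the day controls, with overlapping arrays and no call, but was called with array weights (0.00374).

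In amino acid breakdown 10 of 14 tested genes fell and none rose (median -0.91), with 7 falls without normalization and 14 with median centring. AT4G33150 (LKR/SDH), which starts lysine breakdown, had 1059, 1426 and 1370.4 on the day pulse arrays, against 2930.5, 4329 and 4077 on the day control arrays. Every control was above every pulsed array, a fall of 1.55 ± 0.25. ETFBETA, a subunit of the flavoprotein that takes electrons from branched-chain amino acid breakdown, fell by 1.50 ± 0.23, with 174, 190.3 and 174 after the day pulse, against 375, 722 and 493 in the day controls. MCCB and IVD, of leucine breakdown, fell by 1.70 ± 0.19 and 1.52 ± 0.17. ATBCAT-5, a branched-chain aminotransferase, had -0.23 ± 0.18 and was called only with median centring (0.0246). All 11 tested autophagy genes fell, 10 without normalization, with a median of -1.48. Besides the ATG8 genes, which encode the ubiquitin-like protein of the autophagosome membrane, these included AT5G66930 (ATG101), of the kinase complex that starts autophagy, at 71.6, 84.7 and 78.6 after the day pulse, against 263, 236 and 249 in the day controls. Its groups were well apart and its replicates close, a fall of 1.65 ± 0.16. ATG8F fell by 2.47 ± 0.19, ATG8C by 1.38 ± 0.16 and ATG8E by 4.71 ± 0.27.

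Among 9 genes of starch and sucrose metabolism 5 rose and 1 fell, but with median centring 2 rose and 2 fell, so the excess of rises depended on the scaling. ATSPS4F, a sucrose phosphate synthase, had 322, 381 and 432 on the day pulse arrays, against 96.8, 128 and 127 on the day control arrays, a rise of 1.67 ± 0.20 with no overlap. SBE2.2, a starch branching enzyme, rose by 0.78 ± 0.22 and the glucan phosphorylating enzyme PWD (AT5G26570) by 0.85 ± 0.21. The calls were lost without normalization (0.0837) and with median centring (0.0967) for SBE2.2 and without normalization (0.118) and with median centring (0.0602) for PWD. SBPASE, of the Calvin cycle, rose by 0.94 ± 0.15, a call lost with median centring (0.0742). DPE1, which rearranges maltooligosaccharides during starch breakdown, had 81.3, 116 and 109.9 after the day pulse, against 152, 259 and 234 in the day controls, a fall of 1.04 ± 0.22 that lost its call without normalization (0.0562). AT4G24450, the relative of PWD listed under the same symbol, had 0.15 ± 0.20 and no call.

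Ubiquitin-conjugating enzymes, which pass activated ubiquitin to ligases, fell in 6 of 12 cases and rose in 2 (median -0.55), against 3 lower and 1 higher without normalization. UBC22 had 567, 322 and 279 on the day pulse arrays, against 792, 1377 and 1071 on the day control arrays, a fall of 1.50 ± 0.25, and UBC19, of cyclin turnover in dividing cells, fell by 1.49 ± 0.30. In both, day pulse replicate 1 was the highest pulsed array, yet below the controls. UBC27 fell by 0.64 ± 0.15 and PEX4, which recycles the peroxisomal import receptor, by 0.61 ± 0.17, calls lost without normalization (0.131) for UBC27 and without normalization (0.125), with the 6 day arrays alone (0.0639), without both high-GAPDH arrays (0.0737) and without day control replicate 2 (0.052) for PEX4. UBC18 rose, with 369, 345 and 387 after the day pulse, against 182, 222 and 154 in the day controls, by 0.99 ± 0.22. UBC30 passed at an adjusted p of 0.0467 and lost its call under 17 of 23 alternatives, among them those without day pulse replicate 1 or 3 or day control replicate 2 or 3 (0.164, 0.0701, 0.163 and 0.0765). UBC28, the brightest of the class, had 3461, 3081 and 2692 after the day pulse, against 3553, 1976 and 1980.1 in the day controls and was called only with array weights (0.00226) and without day control replicate 1 (0.00231).

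Ubiquitin-specific proteases, which remove ubiquitin, had 5 of 12 higher and none lower, and the same counts under both other scalings. UBP23 had 339, 316 and 346 on the day pulse arrays, against 126, 65.4 and 84.6 on the day control arrays, a change of 1.89 ± 0.23 with pulsed replicates close together. UBP24 was at 284, 317 and 268 after the day pulse, against 175, 90.5 and 109 in the day controls, a change of 1.25 ± 0.22, and UBP25 rose by 1.05 ± 0.19. UBP21 rose at least 1.36-fold but lost its call with the 6 day arrays alone (0.0633) and with dim signals raised (0.135). The other 7 genes, of which UBP15 was the brightest with 294, 244 and 174 after the day pulse, against 206, 256 and 266 in the day controls, were not called and lay between -0.31 and 0.26. Of 15 U-box and RING ubiquitin ligases, which select the proteins to be tagged, 4 rose and 4 fell, and without normalization 4 rose and 1 fell. Their 26.7% each way was near the 19.1% higher and 22.6% lower of all genes. PUB25 and PUB26, a pair that act in cold and immune signalling, rose at least 3.52-fold and at least 2.84-fold. PUB25 had 89.4, 71.7 and 85.1 after the day pulse, against 26.2, 9.60 and 1.30 in the day controls. PUB19, a repressor of abscisic acid responses, was at 177, 216 and 127 after the day pulse, against 35.1, 29.4 and 35.3 in the day controls, a change of 2.28 ± 0.61, and RHF1A rose by 1.47 ± 0.27. ATL8 fell by 4.47 ± 0.37, with 74.8, 22.9 and 42.2 after the day pulse, against 1480.1, 665 and 929 in the day controls, and LUL2 and XERICO by 1.03 ± 0.20 and 0.93 ± 0.20, the last 2 calls being lost without normalization (0.0531 and 0.0609). BRH1, the brightest of the group, was uncalled at -0.32 ± 0.25, but was called with median centring (0.0339), with array weights (0.028), without both high-GAPDH arrays (0.02) and without day pulse replicate 1 (0.0181).

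Cytosolic and organellar chaperones also split, with 5 of 14 higher and 3 lower, or 3 higher and 4 lower with median centring, so the balance turned with the scaling. The Fes1 genes, which encode nucleotide exchange factors of Hsp70, went both ways. Fes1A had 191, 226 and 147 on the day pulse arrays, against 57.7, 99.5 and 91.3 on the day control arrays, a change of 1.18 ± 0.27. Fes1C had 177, 139 and 166 after the day pulse, against 507, 545 and 574 in the day controls, a fall of 1.75 ± 0.19, and Fes1B fell by 1.89 ± 0.23, with controls between 207 and 215. In all 3 genes the groups were separate. Hsp70-2 was also called higher, Cpn60beta4, a chloroplast chaperonin subunit, rose by 1.65 ± 0.24, and Hop2, an Hsp70 and Hsp90 organizer, by 0.80 ± 0.20, a call lost with median centring (0.104). SGT1A had 0.49 ± 0.24 and was called only without day pulse replicate 3 (0.0476).

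In the nucleus, 3 of 5 tested Mediator subunits, which link transcription factors to RNA polymerase II, fell and none rose, with 2 falls without normalization. MED6 had 13.9, 50.2 and 37.5 on the day pulse arrays, against 181, 185 and 170.5 on the day control arrays, a fall of 2.50 ± 0.35, with controls close together and day pulse replicate 1 the lowest. MED19A fell by 1.26 ± 0.25, a call lost without normalization (0.072), and MED31 by 0.97 ± 0.24. AT2G22370 (MED18) had 0.18 ± 0.23 and no call. Of 20 chromatin proteins 3 rose and 5 fell, or 2 rose and 8 fell with median centring. These shares, 15% higher and 25% lower, were near the 19.1% and 22.6% of all genes. The linker histone genes HIS1-3, a stress-responsive form, and HON4 fell by 1.76 ± 0.29 and 1.61 ± 0.20, HON4 with 195, 269 and 271 after the day pulse, against 885, 608 and 770.2 in the day controls. HTB1, a core histone H2B gene, moved the opposite way at 269, 194 and 219 after the day pulse, against 109.9, 62.3 and 58.8 in the day controls, a rise of 1.58 ± 0.23. HTB4, another H2B gene, had 521, 1029.5 and 954 after the day pulse, against 748, 578 and 628 in the day controls and was not called. HTB4 was called with array weights (0.00107), without both high-GAPDH arrays (0.0388) and without day pulse replicate 1 (0.0134). BSH, a subunit of SWI/SNF remodelling complexes, had 73.8, 75.8 and 73.5 after the day pulse, against 162, 266 and 251 in the day controls, a fall of 1.55 ± 0.20 with nearly identical pulsed arrays. INO80, the remodelling ATPase, fell by 1.06 ± 0.25, a call lost without normalization (0.0601). CHB3, another SWI/SNF subunit, rose by 1.27 ± 0.38, with 105, 83.9 and 82.9 after the day pulse, against 74.0, 17.1 and 36.2 in the day controls, a call lost with the 6 day arrays alone (0.0583), without both high-GAPDH arrays (0.11) and without day control replicate 2 (0.0599).

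Of 6 regulators of iron homeostasis, 3 rose and 1 fell, the same under both other scalings and without both high-GAPDH arrays. bHLH34, an activator of the iron deficiency response, had 465, 295 and 348 on the day pulse arrays, against 15.5, 56.5 and 47.3 on the day control arrays, a change of 3.30 ± 0.37. bHLH121, its partner in that response, had 112, 119 and 133 after the day pulse, against 737, 1294 and 1306 in the day controls, a fall of 3.13 ± 0.22. The 2 partners moved in opposite directions, each with groups far apart. bHLH115 rose by 1.22 ± 0.24 and PYE, a repressor within the same network, by 1.44 ± 0.32. ILR3, a further partner, had 1390.3, 715 and 675 after the day pulse, against 794, 1358 and 974 in the day controls, with overlapping arrays and no call. Genes of light signalling and the clock were also mixed, with 4 of 13 higher and 4 lower, or 3 higher and 1 lower without normalization. AFR, an F-box protein of phytochrome A signalling, had 304, 395 and 508 on the day pulse arrays, against 35.8, 22.2 and 23.1 on the day control arrays, a change of 3.80 ± 0.24. HYH rose at least 15.97-fold and GI by 2.09 ± 0.43. AT4G14480 (BLUS1), a kinase of the stomatal blue light response, had 11.1, 31.8 and 37.9 after the day pulse, against 80.0, 78.1 and 81.0 in the day controls, a fall of 1.65 ± 0.38 that lost its call without normalization (0.0616). COR27, a clock-associated repressor, fell at least 3.61-fold. TIC, a regulator of the clock, rose by 0.76 ± 0.20, a call lost without normalization (0.121), with median centring (0.168) and without both high-GAPDH arrays (0.0549). AT1G72390 (PHL) had 0.47 ± 0.25 and was called without day pulse replicate 3 (0.0387) only.

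At the cell periphery 5 of 7 tetraspanins, membrane proteins that organize other membrane proteins, fell and 1 rose, with 3 falls and 1 rise without normalization. TET7 had 156, 138 and 146 on the day pulse arrays, against 294, 409.7 and 282 on the day control arrays, a fall of 1.14 ± 0.18. TET8, which marks secreted vesicles, had 408, 355 and 230.3 after the day pulse, against 497, 636 and 643 in the day controls, a fall of 0.86 ± 0.22. TET5 fell at least 2.25-fold and TET10 by 0.97 ± 0.21, the TET10 call being lost without normalization (0.0514). TET2 rose at least 2.09-fold, a call lost with the 6 day arrays alone (0.0835), without day pulse replicate 2 (0.0595), without day pulse replicate 3 (0.0849) and without day control replicate 3 (0.113). TET3 had 193, 483 and 473 after the day pulse, against 206, 208 and 211 in the day controls, so that day pulse replicate 1 lay below the tightly grouped controls and the other 2 pulsed arrays far above them. It was not called at an adjusted p of 0.0541, but it was called under 7 alternatives, among them those without day pulse replicate 1 (0.000234) and without both high-GAPDH arrays (0.000726).

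Actin-binding NET and LIM proteins fell in 5 of 9 genes and rose in none (median -0.91), with 5 falls also without normalization. WLIM1, which bundles actin filaments, had 158, 242 and 257 on the day pulse arrays, against 411, 574 and 489 on the day control arrays, a fall of 1.18 ± 0.22, and the related PLIM2b fell by 1.56 ± 0.25. NET4B and NET3A, which tie actin to membranes, fell by 1.59 ± 0.32 and 1.85 ± 0.37. WLIM2b, the brightest of the group, had 2256, 2046 and 2012 after the day pulse, against 2445, 2391 and 2692 in the day controls, separate groups but a change of only -0.25 ± 0.13 and no call, though it was called with median centring (0.00103) and with array weights (0.00241). Microtubule-associated IQD, TRM and SPIRAL proteins were called in equal numbers each way, 5 and 5 of 19, or 4 higher and 9 lower with median centring. The 26.3% called each way was near the 19.1% higher and 22.6% lower of all genes. IQD23 and IQD24, of a family of calmodulin-binding microtubule proteins, rose by 3.26 ± 0.32 and 1.65 ± 0.18, IQD24 with 383, 447 and 407 after the day pulse, against 123, 155 and 113 in the day controls. TRM19 had 91.9, 90.5 and 88.4 on the day pulse arrays, against 547, 598 and 564 on the day control arrays, a fall of 2.63 ± 0.15 with close replicates and no overlap. TRM26 fell by 2.56 ± 0.38. TRM21 and SP1L4 rose by 0.99 ± 0.26 and 1.26 ± 0.34, and SPR1, the brightest of the group, had -0.28 ± 0.20 and was called with median centring (0.0211), with array weights (0.000838) and without day pulse replicate 1 (0.035).

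Of 15 genes for wall polysaccharide synthesis 6 rose and 1 fell, but 3 rose and 2 fell without both high-GAPDH arrays. AT5G15050 (GlcAT14B), which adds glucuronic acid to arabinogalactan, had 172, 114 and 115 on the day pulse arrays, against 38.7, 34.9 and 51.3 on the day control arrays, a change of 1.63 ± 0.21. GUT2, of xylan synthesis, rose by 1.31 ± 0.37, GAUT15, of the pectin-synthesizing family, by 0.77 ± 0.24, and CSLC5, of the family that makes the xyloglucan backbone, by 0.60 ± 0.17. These calls were lost with the 6 day arrays alone (0.0537), without both high-GAPDH arrays (0.113) and without day control replicate 2 (0.0548) for GUT2, with the 6 day arrays alone (0.0532), without both high-GAPDH arrays (0.081), without day pulse replicate 1 (0.0708), without day pulse replicate 3 (0.0569) and without day control replicate 3 (0.0584) for GAUT15 and with the 6 day arrays alone (0.084), without both high-GAPDH arrays (0.0516) and without day control replicate 3 (0.0626) for CSLC5. CSLA03, a glucomannan synthase, fell at least 2.76-fold, with controls of 59.8 to 68.5. CSLC04 had -0.46 ± 0.24 and was called with median centring (0.0332), with array weights (0.00021), without both high-GAPDH arrays (0.0053), without day pulse replicate 1 (0.0374) and without day control replicate 2 (0.0369). Trichome birefringence-like proteins, many of which acetylate wall polysaccharides, were called 4 higher and 4 lower of 16, or 4 higher and none lower without normalization. Their 25% each way was near the 19.1% higher and 22.6% lower of all genes. TBL26 rose at least 14.8-fold, with 291, 432 and 339.9 after the day pulse, against 12.3, 8.34 and 15.4 in the day controls. TBL37 had 784, 449 and 432 after the day pulse, against 193, 135 and 172 in the day controls, a change of 1.68 ± 0.25, and TBL16 rose by 0.96 ± 0.18. TBL41 rose at least 1.76-fold, a call lost with the 6 day arrays alone (0.0813), with array weights (0.0669), without day pulse replicate 1 (0.0618), without day pulse replicate 2 (0.0509) and without day control replicate 1 (0.0673). TBL35 fell at least 1.94-fold, a call lost without normalization (0.066). AT5G06700, the founding member of the family, fell by 0.59 ± 0.18, a call lost without normalization (0.0857), with the 6 day arrays alone (0.0691), without day pulse replicate 3 (0.0731) and without day control replicate 2 (0.0552). TBL25 was uncalled at -0.05 ± 0.21.

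Nuclear genes for photosystem, antenna and NDH subunits were called 7 higher and 1 lower of 14, but 2 higher and 1 lower with median centring, 3 and 1 without normalization, and 4 and 1 without both high-GAPDH arrays. NdhN, of the chloroplast NDH complex, had 252, 179 and 216 on the day pulse arrays, against 90.6, 88.1 and 113 on the day control arrays, a change of 1.13 ± 0.19. LIL3:1, of chlorophyll synthesis, rose by 0.90 ± 0.24, NdhS by 0.63 ± 0.17 and NdhL by 0.60 ± 0.16. These calls were lost without normalization (0.122) and with median centring (0.0949) for LIL3:1, without normalization (0.253), with median centring (0.805) and without both high-GAPDH arrays (0.076) for NdhS and without normalization (0.203) and with median centring (0.447) for NdhL. ATPC2, the minor gene for the gamma subunit of the chloroplast ATP synthase, moved against the group, with 56.6, 39.2 and 44.7 after the day pulse, against 112, 137 and 140.3 in the day controls, a fall of 1.44 ± 0.21. PSAE-1, the brightest member, had 7822, 6940.3 and 6415 after the day pulse, against 5761, 6321 and 6641 in the day controls and was not called.

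Of 22 plastid-encoded genes of transcription and translation 10 were called higher, and of 47 plastid-encoded photosynthesis genes another 10, with none lower in either. For the first list the count was 3 without normalization, 0 with median centring and 1 without both high-GAPDH arrays. For the photosynthesis list, whose 21.3% was near the 19.1% of all genes, it was 3, 2 and 0 under the same alternatives. The mean log2 signal of the 22 genes was 10.81, 9.48 and 10.43 on the day pulse arrays, against 10.16, 8.89 and 8.88 on the day control arrays. Day control replicate 1 thus lay within the pulsed range, while day pulse replicate 1, a high-GAPDH array, was the highest of the 6. For rpl16, a ribosomal protein gene, the signals were 6221, 3056 and 4568 after the day pulse, against 4054, 946 and 943 in the day controls, and those of rps19 and rpl32, also ribosomal, overlapped in the same way. Their changes were 1.53 ± 0.46, 1.36 ± 0.42 and 1.28 ± 0.35, and matK, a splicing factor gene, had 1.74 ± 0.54. The calls were lost with median centring (0.0697), with the 6 day arrays alone (0.0534), without both high-GAPDH arrays (0.161), without day pulse replicate 1 (0.0511), without day control replicate 2 (0.0763) and without day control replicate 3 (0.0797) for rpl16, with median centring (0.0974), with the 6 day arrays alone (0.0634), without both high-GAPDH arrays (0.154), without day pulse replicate 1 (0.0603), without day control replicate 2 (0.0739) and without day control replicate 3 (0.097) for rps19, with median centring (0.09) and without both high-GAPDH arrays (0.0654) for rpl32 and without normalization (0.0571), with median centring (0.0699), with the 6 day arrays alone (0.0696), without both high-GAPDH arrays (0.159), without day pulse replicate 3 (0.059), without day control replicate 2 (0.0944) and without day control replicate 3 (0.0986) for matK. The part of RNA quality in these values was not tested. The gene rpoA, for a subunit of the plastid RNA polymerase, had 0.47 ± 0.22 without a call, and was called with array weights (0.0291), with the replicate block (0.0488), without day pulse replicate 2 (0.0497) and without day control replicate 1 (0.0438).

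**Figure D4:**
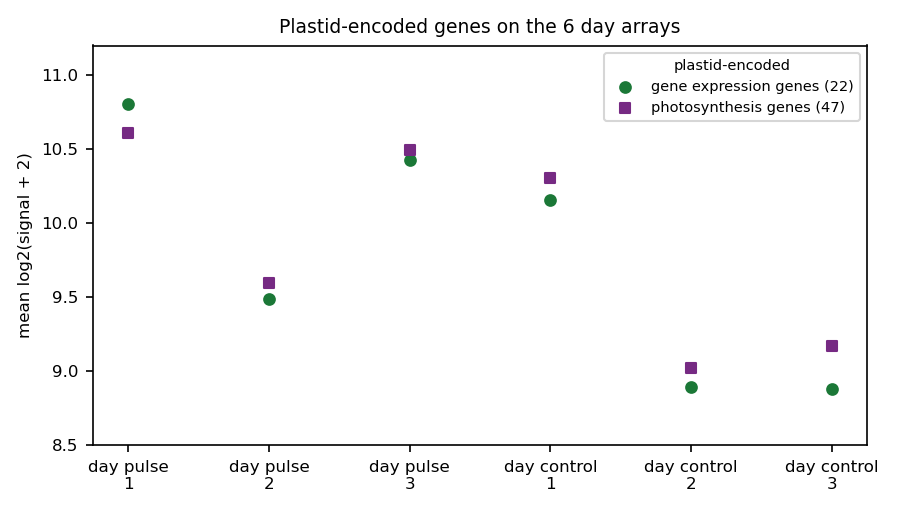
Mean log2(signal + 2) of 22 plastid-encoded gene expression genes (circles) and 47 plastid-encoded photosynthesis genes (squares) on each of the 3 day pulse arrays (left) and the 3 day control arrays (right). Day control replicate 1 lies among the pulsed arrays and the other 2 controls below all of them, so the groups overlap.

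Cold, drought and late embryogenesis genes ran from the largest rises of the listed groups to clear falls, with 7 of 20 higher, 4 lower and a median of -0.07, or 6 higher and 6 lower with median centring. COR15A and COR15B, adjacent genes whose products protect chloroplast membranes from freezing, rose at least 94.9-fold and at least 53.3-fold. LTI30, a dehydrin, had 145, 367 and 216 on the day pulse arrays, against 31.8, 32.2 and 46.1 on the day control arrays, a rise of 2.58 ± 0.58 with widely spread pulsed arrays that all exceeded the controls. TIL, a temperature-induced lipocalin, rose by 1.30 ± 0.27, and COR27 and XERICO, given above, are 2 of the 4 that fell. AT1G54410 (HIRD11), the brightest dehydrin, had 3343, 4016 and 3864 after the day pulse, against 2608, 5102 and 4380.1 in the day controls and was not called.

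The same pulse at night allowed the day effect to be set beside the night effect. Time of day and any difference in time spent in darkness cannot be told apart here. The difference between the effects (day effect minus night effect) was called for 12.7% of all probe sets, 7.47% above 0 and 5.2% below 0, and for 104 of 737 listed genes, 58 above 0 and 46 below 0. This count depended on the scaling and on single arrays: 439 probe sets were called without normalization and 2728 with median centring, against 1728 as reported, and 2660 without day control replicate 1 and 1135 without night control replicate 3. At night 6.07% of probe sets rose and 6.82% fell. Several described groups changed at night too. Of the 7 nitrate, peptide and glucosinolate transporters 5 rose at night, and the difference was called for 2, both above 0. Flavonoid and phenylpropanoid enzymes rose in 5 of 8 genes at night, with 1 difference above 0 and 1 below 0. Of the 14 chaperones 8 rose and 2 fell at night, with 1 difference each way. Of the 12 ubiquitin-specific proteases the difference was called for 4, all above 0. The genes set out next were named by the p of their day change and then taken for a called difference. A day control mean apart from the other groups is in part built in by that choice. UBP23 averaged 334 after the day pulse, against 92.0 in the day controls, and 364 after the night pulse, against 267 in the night controls. Its pulsed levels were alike at both times and the day controls stood below the other groups, with a difference of 1.43 ± 0.32. For GTR1 the means were 327 after the day pulse, against 28.4 in the day controls, and 246 after the night pulse, against 101 in the night controls, a difference of 2.19 ± 0.30, and the day control mean was again the lowest. SWEET17 (difference 2.27 ± 0.34), VTC4 (2.07 ± 0.35) and GSTU18 (1.53 ± 0.30) likewise had their lowest mean in the day controls, with day control means of 33.7, 33.7 and 90.6, against night control means of 109, 169.8 and 250.4. HCT averaged 852 after the day pulse, against 199 in the day controls, and 691 after the night pulse, against 651 in the night controls, with no call at night and a difference of 2.07 ± 0.30.

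Several genes that fell, chosen in the same way, had day controls above the other groups. TRM19 averaged 90.3 after the day pulse, against 569 in the day controls, and 84.0 after the night pulse, against 100.1 in the night controls, a difference of -2.38 ± 0.21. In SDP1 the means were 63.1 after the day pulse, against 570.1 in the day controls, and 48.6 after the night pulse, against 117 in the night controls, a difference of -1.87 ± 0.33, so that the day control mean stood out. MCCB (-1.46 ± 0.27), IVD (-1.11 ± 0.24) and ETFBETA (-1.54 ± 0.33) had day control means of 4112, 3412 and 530.0, against night control means of 249, 143 and 121. Here the level after the day pulse, 1289, 1189 and 179, also stayed above that after the night pulse, 209.7, 108 and 125. Of the 11 autophagy genes, of which 3 were also called lower at night, the difference was called for 7, all below 0. Of the 14 amino acid breakdown genes, with 1 called higher and 1 lower at night, it was called for 5, all below 0. CYP71B26 departed from this order, since it averaged 1214 after the day pulse, against 104 in the day controls, and 49.8 after the night pulse, against 22.9 in the night controls. Its level after the day pulse was far above each other group, with a difference of 2.46 ± 0.29 that was called under each alternative run. Without normalization the difference was not called for UBP23, GSTU18, HCT, IVD, ETFBETA or SDP1. TBL37, at 555 after the day pulse, against 167 in the day controls, and 302 after the night pulse, against 377 in the night controls, also had its highest mean after the day pulse, with a difference of 2.02 ± 0.35.

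**Figure D5:**
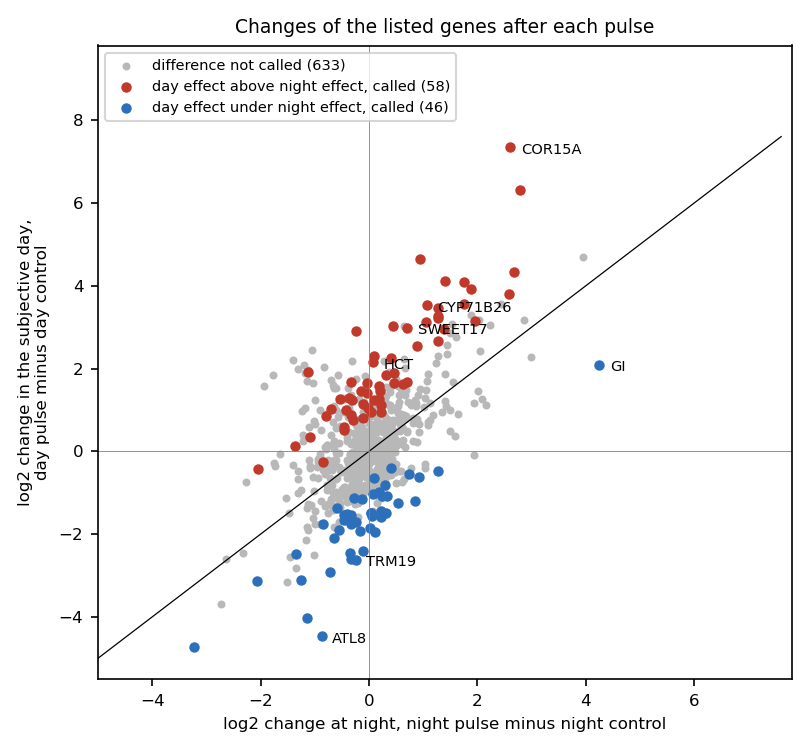
Log2 change after the day pulse relative to the day controls (vertical axis) against the log2 change after the night pulse relative to the night controls (horizontal axis) for the 737 listed genes, with a line of equal change. The difference was called for 58 genes above the line, such as COR15A and CYP71B26, and for 46 below it, such as ATL8 and TRM19.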

How the data were processed

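RNA abundance was measured on 12 ATH1 arrays, 3 in each of the day pulse, day control, night pulse and night control groups, grouped by title. The deposited values are signal intensities per probe set, made by the authors with MAS5 per the submitters' processing notes. The sources used here do not give its version, scaling or settings. Whether RNA of several plants was pooled is not stated.

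Signals had 2 added, were put on the log2 scale and quantile normalized. Of 22746 probe sets other than the 64 controls, the 13647 with a mean above the 40th percentile were fitted with limma 3.58.1 (R 4.3.3; lmFit, eBayes with a trend) over the 4 groups, with 8 residual degrees of freedom. Calls needed a Benjamini-Hochberg adjusted p under 0.05. The platform annotation gave 1 gene to 13513 probe sets, several to 503 and none to 8730, and 13436 of the 13513 matched TAIR10.1. Of the 13436, 1551 had a gene name other than the locus, which limits lists made by symbol. Each gene was represented by its probe set of highest mean.

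The members and lists were chosen with earlier results of these data known. Lists by symbol or locus were rewritten after the annotation was seen, and the thresholds for describing a list were set after its counts were seen. They name 1074 genes, of which 737 were tested. In each list described, up to 4 called genes with the smallest p, up to 2 called in the opposite direction and the brightest uncalled gene are named, besides the 6 largest rises and 6 largest falls whose arrays do not overlap and 5 anchor genes (GI, HYH, COR15A, COR15B, ATG8E). Alternatives covered scaling, pseudocount, filter, dim signals, trend, array weights, array quality, the replicate block and each array left out. A planned search for promoter motifs was not run.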

Additional observations from a re-analysis of the deposited data

Results flagged for a closer look

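The effect of the pulse differed between subjective day and night, by the interaction test in limma, in 67 of the 176 named genes. The difference (day effect minus night effect, log2) was above 0 for 38 and below 0 for 29. Over all probe sets it was called for 12.7%. Most named genes were picked by the p or size of their day change, which enters this difference, so these shares cannot be compared. At night 39 of the 67 were not called and the rest were called. Of all probe sets 12.9% were called at night and the rest were not. Of the 67, 1, UBC28, was called at night in the direction opposite to its day change, which was itself not called. Among the ubiquitin and protein folding genes the difference was 1.43 for UBP23, 1.07 for UBP24, 1.08 for UBP25, 1.44 for UBC28, -0.73 for UBC27, 1.26 for RHF1A, -3.60 for ATL8 and 1.18 for Cpn60beta4. For transporters, redox enzymes and respiration it was 1.66 for AT3G21670, 2.19 for GTR1, 2.27 for SWEET17, 2.07 for VTC4, 1.26 for GR, 1.53 for GSTU18 and 1.19 for CYTC-2. For specialised metabolism the values were 2.07 for HCT, -1.62 for CCOAMT, 1.79 for GT72B1, 1.58 for UGT76E11, -2.11 for UGT85A5, 2.46 for CYP71B26 and 1.85 for CYP71B35. Carbon, lipid, amino acid and sulfur metabolism gave 0.72 for SBPASE, 0.98 for ATSPS4F, -1.11 for DPE1, -1.87 for SDP1, -1.46 for MCCB, -1.11 for IVD, -1.54 for ETFBETA, -1.22 for AT4G33150 and -1.01 for LCD. All autophagy genes named had a value below 0, namely -1.48 for ATG8E, -1.13 for ATG8F, -0.78 for ATG8C and -1.19 for AT5G66930. In the light, photosystem, iron and chromatin groups it was 2.33 for HYH, 1.21 for AFR, -2.15 for GI, 1.06 for TIC, 0.91 for NdhN, -1.66 for ATPC2, 1.65 for rpl32, -1.06 for bHLH121, 1.40 for HTB1 and -1.10 for BSH. The cytoskeleton, wall and tetraspanin groups gave 1.98 for IQD23, 1.69 for IQD24, -2.38 for TRM19, -1.87 for NET3A, -1.80 for NET4B, -1.17 for PLIM2b, 0.59 for WLIM2b, 1.00 for AT5G15050, 0.92 for TBL16, 2.02 for TBL37, -1.75 for TET5 and -0.86 for TET7. The cold genes and the genes with the largest changes gave 4.74 for COR15A, 3.52 for COR15B, 4.69 for AT1G51090, 3.10 for AT3G44450, 5.44 for AT1G13650, 3.08 for AT1G06000, -4.87 for AT3G62950, -2.11 for AT2G20670, -3.09 for AT1G50040 and -2.65 for AT1G54740.

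The difference for 16 of these genes includes a group mean under 21.75, so that its size rests on dim signals. With all signals raised to that level the difference was still called for 64 of the 67, but not for GI (-0.74 ± 0.30), WLIM2b (0.59 ± 0.19) or AT1G06000 (0.72 ± 0.32). Among genes still called, it shrank to 2.47 for AT1G13650 and 1.56 for AT3G44450. It grew in size for ATL8 (-3.70) and AT2G20670 (-2.39). Over all alternatives run 18 of the 67 stayed called in each. The WLIM2b difference (adjusted p = 0.0489 by the interaction test in limma) lost its call under 19 alternatives. With median centring it changed sign, to -0.13. The call was lost under 17 alternatives for SBPASE, 15 for rpl32 and 13 for PLIM2b (0.0497). The labelled hours of the day and night samples conflict with their titles, and night arrays had medians of 41.2 to 63.5, against 23.5 to 47.2 on the day arrays. The part of overall signal in these differences was not tested.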

How the results depend on the processing

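Probe sets called after the day pulse numbered 5833, and 3721 without normalization. They numbered 4431 with the 6 day arrays alone, 4348 with the filter at the 60th percentile and 8711 with array weights. Those called lower numbered 2969, 1570 without normalization and 4535 with array weights. The called difference between pulses covered 1728 probe sets, 439 without normalization, 2728 with median centring and 5308 with array weights. Calls were 57.8% higher without normalization and 33.9% with median centring, against 49.1% as reported. Leaving out 1 array at a time gave 4737 to 6173 called, 2412 to 3070 higher, 2325 to 3112 lower and 1135 to 2660 differences, the extremes of the last without night control replicate 3 and without day control replicate 1. The night arrays were left out as alternatives added after seeing the data. The replicate numbers did not pair the day arrays (correlations of deviations 0.05, -0.07 and 0.09), and the replicate block gave 6214 calls, 3021 higher and 3193 lower, with 2019 differences.

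Of 4015 alternative values of the day change of named genes 3803 kept direction and side of the threshold. A call was lost in 140 and gained in 43, and 29 changed sign, all in genes not called, the cause of which was not tested. With median centring the log2 change was -0.50 for GME, which was then called lower (adjusted p = 0.0296), -0.0025 for AT4G24450, -0.0067 for AIM1, -0.070 for UBC28, -0.17 for HTB4 and -0.22 for ALDH2C4, and without normalization -0.17 for GME. Without both high-GAPDH arrays it was 0.021 for SWEET11, 0.068 for CYP71B34 and 0.22 for AT1G54410, and with array weights 0.072 for CYP71B34. Leaving out 1 array gave -0.11 to 0.25 for GME, -0.37 to 0.038 for NDB1, -0.020 to 0.31 for AT4G24450, -0.37 to 0.069 for SWEET11, -0.22 to 0.15 for UBP15, -0.052 to 0.37 for AT2G22370, -0.29 to 0.088 for TBL25, -0.18 to 0.077 for CYP71B34 and -0.34 to 0.14 for AT1G54410. Of 149 called named genes 109 kept the call under each of the 23 alternatives. Dim probe sets limit the size of changes, and 3 arrays a group limit the precision.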

Other observations

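Further groups are given here by their counts, beside 19.1% of all genes called higher and 22.6% lower. Of 17 genes of DNA replication, repair and mitosis none rose and 3 fell after the day pulse relative to the day controls, or 6 fell without both high-GAPDH arrays, and 12 genes of the exocyst and vesicle fusion also had no rise and 4 falls. Of 11 ESCRT genes, which sort membrane proteins for the vacuole, 1 rose and 3 fell, or 7 fell and none rose with median centring. Of 22 genes of RNA processing and export 1 rose and 6 fell, but none was called in either direction without normalization and 10 fell with median centring.

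The 7 genes of the jasmonate pathway, a stress hormone, had 2 rises, no fall and a median of 1.36, the same counts without normalization and with median centring. Of 14 serine carboxypeptidase-like proteins, acyltransferases and peptidases of the vacuole, 4 rose and 2 fell, and of 22 thylakoid assembly genes 7 rose and 2 fell, but 6 rose and 7 fell with median centring.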
